A study of Mus musculus with 15 samples.

Results

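Cholesterol and fatty acids are built from acetyl-CoA by long enzyme chains, and the sterol and fatty acid synthesis genes described here encode those enzymes, the proteins that switch them, and a short arm for sterol efflux. They were chosen as a list of 36 mouse genes, and every probe that the platform's gene table gives to 1 of them was taken. Of the 36 genes, 32 had a named probe and 29 were detected on 3 or more of the 12 pro-B arrays, out of 9687 genes measured there. Acat2, Hmgcs1, Fdft1 and Nr1h2 had no named probe and were not analysed here. Abca1 and Acaca were not well above background on any pro-B array, and Idi1 was so on 2 pro-B arrays. Of the 29, 3 rest on few detected arrays, since Tm7sf2 and Mylip were detected on 3 of 12 and Fasn on 4 of 12, and a gene that passes a detection minimum through the group where it is high is bound to differ. The 29 are therefore the measured members, not all members.

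Cells make sterols through the mevalonate pathway, which leads over isoprenoids and squalene to lanosterol and cholesterol. The membrane-bound transcription factors SREBP1 and SREBP2, encoded by Srebf1 and Srebf2, raise many of these genes when sterols are scarce. Their escort protein SCAP carries them to the Golgi for cleavage, and INSIG proteins hold them back in the endoplasmic reticulum when sterols are plentiful. The liver X receptors act the other way and raise efflux genes when oxysterols build up. Dividing lymphocytes are known for a high demand for new membrane lipid.

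The study hybridised RNA of 15 samples to mouse bead arrays made by Illumina, in 5 groups of 3 arrays. The 4 pro-B groups were grown from bone marrow of mice aged 6 to 8 weeks on a mixed C57BL/6 and 129S5 background, for 10 days with IL-7, Flt3L and SCF. They were Bcl2-rescued Bcl11a-deficient cells (titled Bcl2+OHT), Bcl2 overexpression wild type cells (Bcl2-OHT), Bcl11a-deficient cells (EAAE+OHT) and wild type cells (EAAE-OHT), and are called here Bcl2-rescued labelled deficient, Bcl2 control, labelled deficient and control. The fifth group, titled DN3, is labelled lymphocytes of genotype Bcl11bCKO/CKO from strain "C57B7" at 6 to 8 weeks, with the same culture text. The sources used here do not give the promoter of the added Bcl2, the recombinase or the number of mice behind a culture. Both labelled deficient groups carry +OHT and neither control group does, so deletion and OHT cannot be told apart. Nothing in the labels ties an array to a separate mouse, so p-values measure the spread between arrays, which may be technical.

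The targeted gene did not follow its label in both backgrounds. The brightest Bcl11a probe read 9.87, 10.26 and 10.30 on the Bcl2-rescued labelled deficient arrays, against 10.84, 11.02 and 10.95 on the Bcl2 control arrays (log2 fold change -0.79 ± 0.20, limma adjusted p = 0.012). Without Bcl2 it read 11.34, 11.65 and 11.48 on the labelled deficient arrays, against 9.57, 9.30 and 10.00 on the control arrays, 1.87 ± 0.20 higher (limma adjusted p = 0.0033). A dimmer second Bcl11a probe gave -0.92 ± 0.44 and -0.25 ± 0.44 in these comparisons, the deleted part is not stated in the labels, and directions below are relative to the label. Control replicate 3 was dim, with a mean signal of 187 and 11473 detected probes, against 445 to 769 and 14946 to 16422 on the other pro-B arrays, and calls gained without it are named with their comparison. The labelled tissues matched their markers: with all 15 arrays normalised together, the summed signal of 11 early B cell genes was 4270 to 5570 on DN3 arrays and 107000 to 163000 on pro-B arrays, and that of 12 T cell genes was 111000 to 114000 and 626 to 968. Only 6 of these 12 T cell genes passed the detection minimum on the pro-B arrays alone. The others were kept through the DN3 arrays, so they were bound to be higher there and are no support of their own. Added Bcl2 could not be seen: the brightest Bcl2 probe gave -0.83 ± 0.40 between Bcl2 control and control arrays and -0.82 ± 0.40 between Bcl2-rescued labelled deficient and labelled deficient arrays, neither of which passed, and the labels do not say whether these probes would read the added gene.

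Against the Bcl2 control arrays, 8 of 13 measured sterol pathway enzymes and all 4 fatty acid desaturases were lower on the Bcl2-rescued labelled deficient arrays. There 15 of 29 measured members were lower and 1, Insig2, was higher. Of all 9687 genes 25% were called in that comparison, 12.8% higher and 12.3% lower. The median log2 fold change was -0.90 over the members and 0.04 over all genes, and 19 members were lower and 4 higher with no overlap between the groups, against 24.8% and 28.3% of all genes. Each value is a normalised log2 intensity, and a call is a Benjamini-Hochberg adjusted p under 0.05 over all genes in limma. In RNA from whole cultures, fewer cells of a type and less RNA per cell cannot be told apart.

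**Figure D1:**
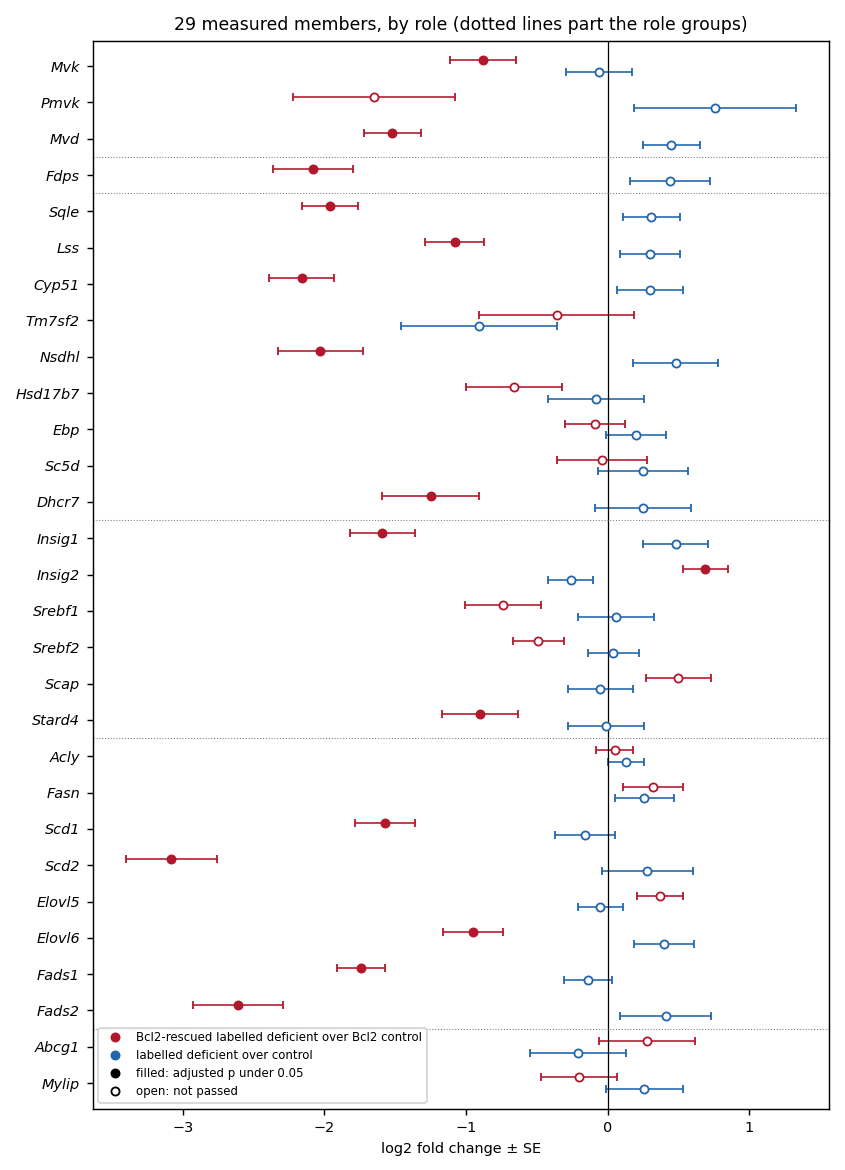
Log2 fold change ± SE (limma, n = 3 arrays per group) of the 29 measured members, ordered by role from the mevalonate steps at the top to efflux at the bottom, for Bcl2-rescued labelled deficient over Bcl2 control arrays (red) and labelled deficient over control arrays (blue). Filled points passed at an adjusted p under 0.05: 15 red points lie filled on the lower side, 1 on the higher side, and no blue point is filled.

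The mevalonate steps were lower on the Bcl2-rescued labelled deficient arrays in 2 of 3 measured genes. Mvd, the decarboxylase that makes isopentenyl diphosphate, read 8.23, 8.19 and 8.00 there, against 9.72, 9.59 and 9.66 on the Bcl2 control arrays. The groups lay far apart, and Mvd fell by 1.52 ± 0.20 on the log2 scale, a 2.86-fold difference (adjusted p = 0.00024). Mvk, mevalonate kinase, read 5.79, 5.52 and 5.44, against 6.36, 6.22 and 6.81 on the Bcl2 control arrays. Its log2 fold change was -0.88 ± 0.23 (adjusted p = 0.015), and it was near background, detected on 1 of the 3 Bcl2-rescued labelled deficient arrays. The Mvk call was lost without Bcl2 control replicate 3 (adjusted p = 0.063) or Bcl2-rescued labelled deficient replicate 2 (0.057) or 3 (0.064).

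Pmvk, the phosphomevalonate kinase between them, read 6.47, 6.81 and 6.67 on the Bcl2-rescued labelled deficient arrays, against 8.17, 8.47 and 8.26 on the Bcl2 control arrays. These groups did not overlap, yet the log2 fold change of -1.65 ± 0.57 did not pass (adjusted p = 0.053). Control replicate 3, which enters the shared spread, stood at 5.28, while control replicates 1 and 2 stood at 8.02 and 7.95. Without that array it was -1.67 (adjusted p = 3.1e-05), and it also passed without control replicate 1 (0.036) or 2 (0.042) and with replicate number as a block within each Bcl2 background (0.049).

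Fdps, farnesyl diphosphate synthase, stands where the pathway branches towards sterols and towards the isoprenoid tails of proteins and ubiquinone. It read 11.08, 11.17 and 11.23 on the Bcl2-rescued labelled deficient arrays, against 13.20, 13.31 and 13.22 on the Bcl2 control arrays. Replicates differed by at most a fraction of the gap between groups, and Fdps fell by 2.08 ± 0.28 (4.23-fold, adjusted p = 3e-04). A second, dimmer Fdps probe gave -0.99 ± 0.35.

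From squalene to cholesterol 5 of 9 measured genes were lower and none was higher. Sqle, squalene epoxidase and a rate-limiting step of the branch, read 10.08, 10.01 and 9.88 on the Bcl2-rescued labelled deficient arrays, against 12.01, 12.18 and 11.65 on the Bcl2 control arrays. It fell by 1.96 ± 0.20 (3.88-fold, adjusted p = 3e-05), and its other kept probe gave -2.28. Cyp51, the demethylase of lanosterol, read 8.21, 8.00 and 8.08, against 10.31, 10.39 and 10.06 on the Bcl2 control arrays. It fell by 2.16 ± 0.23 (4.47-fold, adjusted p = 4.2e-05). For Sqle and Cyp51 every Bcl2-rescued labelled deficient array lay far below every Bcl2 control array.

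Nsdhl, a dehydrogenase of the steps that strip methyl groups from the sterol ring, read 6.46, 6.78 and 6.78 on the Bcl2-rescued labelled deficient arrays, against 8.50, 8.96 and 8.66 on the Bcl2 control arrays. It fell by 2.03 ± 0.30 (4.09-fold, adjusted p = 0.00049), and its other kept probes gave -2.17, -1.13 and -0.69. Lss, the cyclase that forms lanosterol, read 7.62, 7.87 and 7.83, against 8.64, 9.25 and 8.66 on the Bcl2 control arrays. Its fall was 1.08 ± 0.21 on the log2 scale (2.11-fold, adjusted p = 0.0034). Dhcr7, which makes cholesterol in the last step of one route, averaged 6.27 ± 0.35 on the Bcl2-rescued labelled deficient arrays and 7.52 ± 0.26 on the Bcl2 control arrays (SD, n = 3 each). Its log2 fold change was -1.25 ± 0.34 (adjusted p = 0.019), and the call was lost without Bcl2 control replicate 2 (adjusted p = 0.079) or Bcl2-rescued labelled deficient replicate 1 (0.086).

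The other genes of the branch did not pass. Ebp, the isomerase, gave -0.09 ± 0.21 (adjusted p = 0.81) and Sc5d, the desaturase that follows it, -0.04 ± 0.32 (adjusted p = 0.95). Their groups overlapped, so 2 successive steps of the branch did not pass while steps before and after them did. Tm7sf2, a sterol reductase, was detected on 1 array in each of these groups and gave -0.36 ± 0.55. Hsd17b7, the ketone reductase that acts with Nsdhl, gave -0.66 ± 0.34 (adjusted p = 0.19). It passed without control replicate 3 (0.025) and with the replicate block within each background (0.03).

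**Figure D2:**
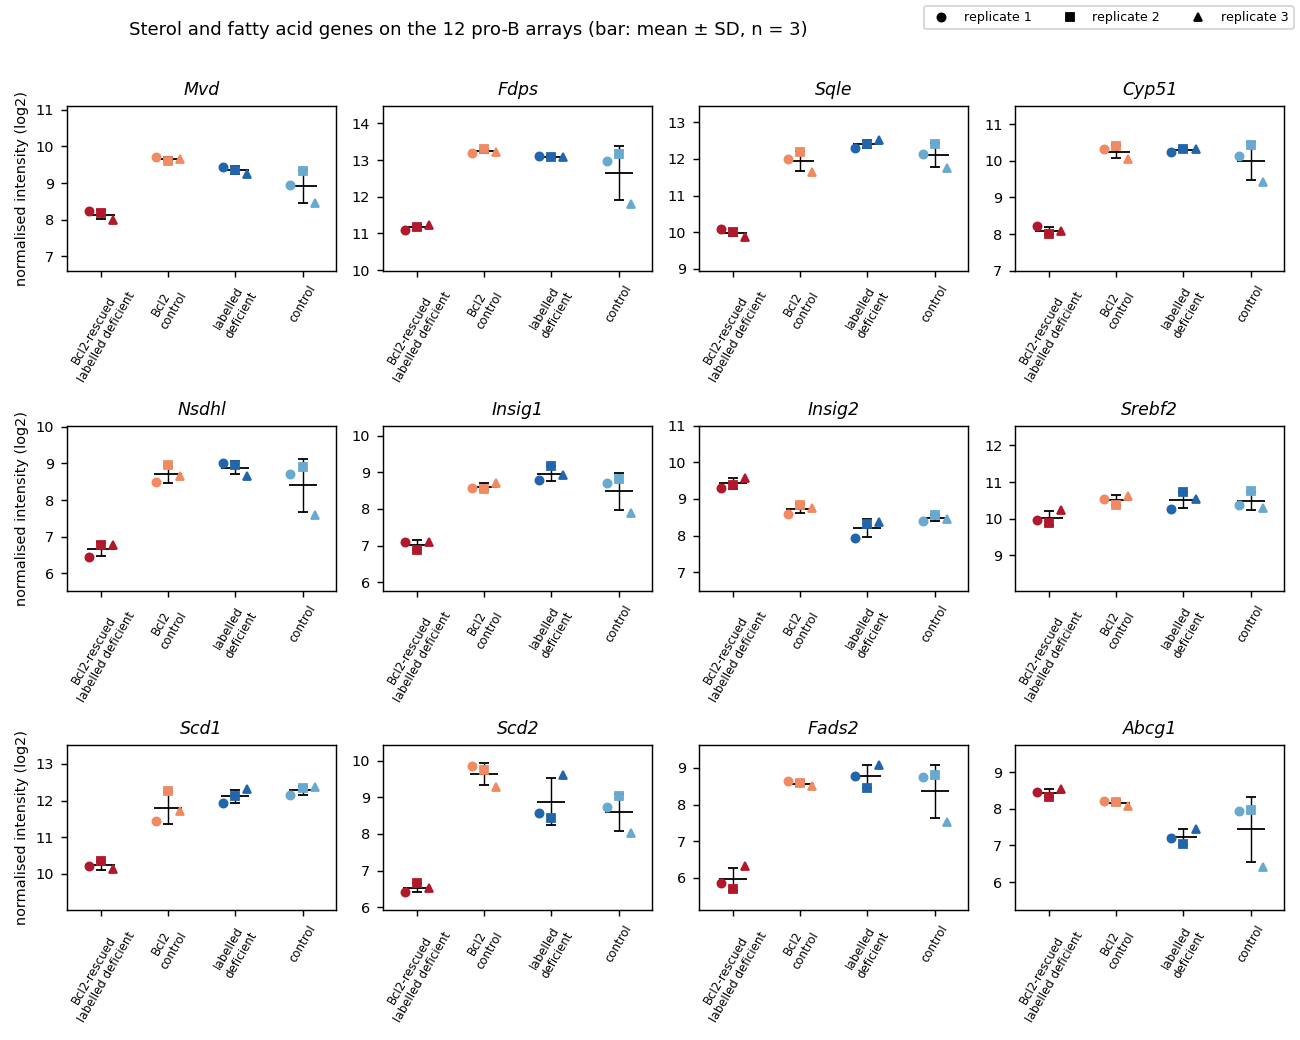
Normalised log2 intensity of 12 members on each pro-B array, with group mean ± SD (n = 3). Every panel spans the same number of log2 units, and the Bcl2-rescued labelled deficient arrays stand at the left. Control replicate 3 (triangle, at the right) lies below the other control arrays in every panel but those of Insig2 and Scd1.

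Upstream sequence was available for 28 of the 36 members from RefSeq (GRCm38.p6), and 4 genes that were lower together are shown because they let a reader see a shared element. The capitals mark the NF-Y box CCAAT, or its reverse ATTGG, a site of a factor known to act beside SREBP. Each run is the 250 bases before the gene start, read 5′ to 3′ in the direction of the gene. Cyp51 lies on the minus strand (chr5:4104698-4104947), Nsdhl on the plus strand (chrX:72918271-72918520), Mvd on the minus strand (chr8:122443423-122443672) and Insig1 on the plus strand (chr5:28071162-28071411).
Cyp51: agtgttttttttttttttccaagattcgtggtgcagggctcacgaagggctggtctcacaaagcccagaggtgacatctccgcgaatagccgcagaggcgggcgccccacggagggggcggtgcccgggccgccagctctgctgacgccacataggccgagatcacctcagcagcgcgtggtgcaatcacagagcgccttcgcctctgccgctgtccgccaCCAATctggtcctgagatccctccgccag
Nsdhl: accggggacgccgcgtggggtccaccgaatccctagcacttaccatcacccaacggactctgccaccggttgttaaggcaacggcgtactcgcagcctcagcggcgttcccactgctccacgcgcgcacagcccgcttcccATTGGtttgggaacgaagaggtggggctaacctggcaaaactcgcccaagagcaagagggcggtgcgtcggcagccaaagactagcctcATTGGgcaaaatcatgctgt
Mvd: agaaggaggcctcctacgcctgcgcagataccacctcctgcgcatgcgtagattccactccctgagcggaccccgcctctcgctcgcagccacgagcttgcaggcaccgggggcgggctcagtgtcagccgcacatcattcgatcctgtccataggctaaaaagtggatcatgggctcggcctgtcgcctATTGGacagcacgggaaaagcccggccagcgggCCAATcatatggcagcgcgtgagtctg
Insig1: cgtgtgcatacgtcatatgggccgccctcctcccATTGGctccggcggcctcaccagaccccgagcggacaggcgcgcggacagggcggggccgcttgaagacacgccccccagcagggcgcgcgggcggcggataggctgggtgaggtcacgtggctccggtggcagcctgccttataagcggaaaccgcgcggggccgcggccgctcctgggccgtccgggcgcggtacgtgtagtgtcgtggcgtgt

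The letters CCAAT were searched on both strands and stood in an upstream window of 20 of the 28 genes, in 21 of their 36 windows, and in 33.8% of all 32851 such windows. By call against the Bcl2 control arrays, 7 of the 9 lower members with a window held the box (Mvk, Mvd, Lss, Cyp51, Nsdhl, Dhcr7 and Insig1), as did Insig2 and 10 of the 12 members that did not pass. The box was thus not particular to the members that were lower. The Sp1 box GGGCGG, whose G bases can overlap the end of ATTGG, stood in 22 of 28 genes, in 25 of their 36 windows, and in 32.7% of all windows. The E box CACGTG, which reads the same on both strands, stood in 7 genes, in 7 of the 36 windows, and in 6.02% of all windows. The sterol element TCACNCCAC stood in 1 gene, Hmgcs1, and in 1.05% of windows, and the spaced direct repeat bound by the liver X receptors in none and in 0.0152% of windows. No match says only that these letters are not in the window.

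Among the genes that control SREBP, the 2 INSIG genes moved in opposite directions. Insig1, itself a well known SREBP target, read 7.10, 6.87 and 7.09 on the Bcl2-rescued labelled deficient arrays, against 8.57, 8.55 and 8.72 on the Bcl2 control arrays. It fell by 1.59 ± 0.23 (3.01-fold, adjusted p = 0.00045), and its other kept probes gave -1.66 ± 0.16 and -0.60 ± 0.34, the last near background. Insig2, which is not induced by SREBP in the same way, read 9.29, 9.39 and 9.57, against 8.60, 8.84 and 8.75 on the Bcl2 control arrays. It rose by 0.69 ± 0.16 (1.61-fold, adjusted p = 0.0088), with 0.57 ± 0.18 from its second kept probe, and with the 75th percentile scaling it was 0.63 and did not pass (adjusted p = 0.059).

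Stard4, a carrier of cholesterol between membranes, read 9.30, 9.92 and 9.86 on the Bcl2-rescued labelled deficient arrays, against 10.28, 10.63 and 10.88 on the Bcl2 control arrays. Its log2 fold change was -0.90 ± 0.27 (adjusted p = 0.028). The call was lost without Bcl2 control replicate 2 (adjusted p = 0.079) or 3 (0.1) or Bcl2-rescued labelled deficient replicate 1 (0.12) or 3 (0.052).

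The SREBP genes and Scap did not pass in the fit over all 12 arrays. Srebf1 read 6.18, 6.04 and 6.66 on the Bcl2-rescued labelled deficient arrays, against 7.03, 6.98 and 7.10 on the Bcl2 control arrays (-0.74 ± 0.27, adjusted p = 0.065). Srebf2 averaged 10.02 ± 0.19 and 10.51 ± 0.13 (-0.49 ± 0.18, adjusted p = 0.076). Read from the brightest probes, the values of Srebf1 and Srebf2 were smaller in size than those of Sqle, Cyp51 and Insig1. That order was not tested and depends on the probe, since another Insig1 probe, near background, gave a smaller fall. Scap averaged 10.59 ± 0.15 and 10.10 ± 0.17 (0.50 ± 0.23, adjusted p = 0.15), with 0.82 ± 0.26 from its second probe. Without control replicate 3 all 3 passed, Srebf1 at -0.76 (adjusted p = 0.015), Srebf2 at -0.48 (0.032) and Scap at 0.49 (0.037), and Srebf2 also passed with the replicate block within each background (0.045).

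In the fatty acid arm 5 of 8 measured genes were lower on the Bcl2-rescued labelled deficient arrays, and they were desaturases and an elongase. Scd2, a desaturase that puts the first double bond into saturated fatty acids, read 6.42, 6.66 and 6.52, against 9.84, 9.73 and 9.28 on the Bcl2 control arrays. Its fall of 3.08 ± 0.32 (8.47-fold, adjusted p = 4.3e-05) was the largest among the 29 members. Its relative Scd1 read 10.21, 10.35 and 10.12, against 11.43, 12.26 and 11.71 on the Bcl2 control arrays, and fell by 1.57 ± 0.21 (2.97-fold, adjusted p = 0.00023).

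Fads1 and Fads2 encode the front-end desaturases that make polyunsaturated fatty acids, and both were lower. Fads2 read 5.85, 5.70 and 6.32 on the Bcl2-rescued labelled deficient arrays, against 8.63, 8.58 and 8.50 on the Bcl2 control arrays. It fell by 2.61 ± 0.32 (6.12-fold, adjusted p = 0.00013), while its dimmer second probe gave -1.33 ± 0.59. Fads1 read 10.77, 10.66 and 10.73, against 12.39, 12.58 and 12.40 on the Bcl2 control arrays, and fell by 1.74 ± 0.17 (3.34-fold, adjusted p = 2.6e-05). Elovl6, the elongase of saturated chains, averaged 11.80 ± 0.07 on the Bcl2-rescued labelled deficient arrays and 12.74 ± 0.38 on the Bcl2 control arrays (SD, n = 3 each). It fell by 0.95 ± 0.21 (adjusted p = 0.0064).

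The genes that supply and assemble the chain itself did not pass. Acly, the ATP-citrate lyase that gives cytosolic acetyl-CoA, was among the brightest probes and averaged 13.63 ± 0.03 on the Bcl2-rescued labelled deficient arrays and 13.57 ± 0.07 on the Bcl2 control arrays. Its difference was 0.05 ± 0.13 (adjusted p = 0.83). Fasn, fatty acid synthase, gave 0.32 ± 0.21 (adjusted p = 0.32). It was detected on 3 Bcl2-rescued labelled deficient arrays and 1 Bcl2 control array, so it was kept through the group where it was highest and could hardly have shown a fall. Elovl5, the elongase of polyunsaturated chains, gave 0.37 ± 0.16 with groups that did not overlap (adjusted p = 0.12).

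The efflux arm could be followed through 2 genes, neither of which passed. Abcg1, an exporter of cholesterol and a target of the liver X receptors, read 8.45, 8.32 and 8.54 on the Bcl2-rescued labelled deficient arrays, against 8.21, 8.18 and 8.08 on the Bcl2 control arrays. The arrays did not overlap, and the difference of 0.28 ± 0.34 did not pass (adjusted p = 0.62). Mylip, a ligase that marks the LDL receptor for destruction, read 5.42, 5.56 and 5.39, against 5.30, 5.99 and 5.67 on the Bcl2 control arrays. It was not well above background on the Bcl2-rescued labelled deficient arrays (-0.20 ± 0.27, adjusted p = 0.66).

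Set against each other, synthesis and efflux parted in the Bcl2-rescued labelled deficient group. The mean over the 27 synthesis members was 8.58, 8.68 and 8.73 on those arrays, against 9.62, 9.78 and 9.65 on the Bcl2 control arrays, 9.53, 9.53 and 9.64 where cells were labelled deficient without Bcl2, and 9.48, 9.61 and 9.16 on the control arrays. These 27 are all measured members outside the efflux arm. They thus include Insig1, Insig2, Srebf1, Srebf2, Scap and the carrier Stard4, which are not synthesis enzymes. Over the 13 sterol enzymes alone the mean was 7.80 to 7.99 on the Bcl2-rescued labelled deficient arrays and 9.04 to 9.23 on the Bcl2 control arrays. The mean of Abcg1 and Mylip was 6.93, 6.94 and 6.96 on the Bcl2-rescued labelled deficient arrays, against 6.75, 7.08 and 6.88 on the Bcl2 control arrays, which overlap. Synthesis minus efflux was thus 1.65 to 1.77 on the Bcl2-rescued labelled deficient arrays, and between 2.60 and 3.37 on the other 9 pro-B arrays. The difference between the Bcl2 groups was -1.06 on the log2 scale, given as a description with no test, and levels of different probes are not compared here. The efflux mean rests on Abcg1 for the most part, since Mylip was near background.

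**Figure D3:**
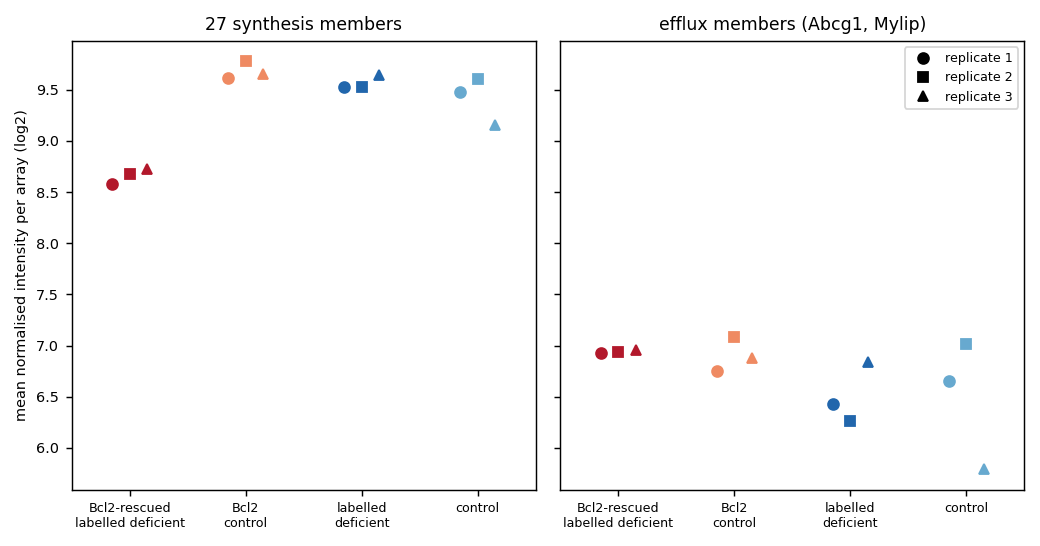
Mean normalised log2 intensity per array over the 27 synthesis members (left) and over Abcg1 and Mylip (right), each point 1 pro-B array. The Bcl2-rescued labelled deficient arrays lie at 8.58 to 8.73 in the left panel, below the other groups, and at 6.93 to 6.96 in the right panel, within the range of the Bcl2 control arrays.

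Genes of the same pathways outside the list gave mixed counts in this comparison. Of 4 other sterol synthesis and uptake genes measured, 2 were lower and 1 was higher. Tmem97, a sterol-responsive membrane protein, read 8.76, 8.70 and 8.86 on the Bcl2-rescued labelled deficient arrays, against 11.02, 11.08 and 11.02 on the Bcl2 control arrays (-2.26 ± 0.26, adjusted p = 7.8e-05). Msmo1, a methyl sterol oxidase of the branch that holds Nsdhl, gave -0.99 ± 0.19 (adjusted p = 0.0029), and Npc1, which lets cholesterol out of lysosomes, 0.70 ± 0.17 (adjusted p = 0.01). So 2 further sterol genes went with the enzymes above and a transporter went against them.

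Of 17 other lipogenic genes 6 were lower and 2 higher, among them Acsl3, which activates fatty acids (-1.72 ± 0.18), and Lpin1, a phosphatidate phosphatase (2.02 ± 0.25). Users of isoprenoids were lower in 2 of 7, Fntb, a farnesyltransferase subunit (-1.35 ± 0.21), and Coq2, of ubiquinone synthesis (-0.87 ± 0.29). Fatty acid oxidation gave 1 higher and 1 lower of 13, the SREBP and reductase processing genes 1 higher of 9 (Erlin2), and the other liver X receptor partners and targets 2 higher of 7 (Abca7 and Cyp27a1). Against the 25% of all genes called, the counts from the isoprenoid users onward are no result about their lists.

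Cell cycle genes were lower in this comparison too. The summed signal of 15 S phase genes was 10400 to 11100 on the Bcl2-rescued labelled deficient arrays and 45400 to 53200 on the Bcl2 control arrays, and all 15 were lower. The sum of 12 G2 and M phase genes was 12100 to 12800 and 50900 to 57100, with 11 lower. Early B cell genes summed to 187000 to 193000 and 145000 to 149000, with 4 of 11 higher and 1 negative value. Dendritic cell genes summed to 28600 to 37200 and 10100 to 13100, with 5 of 10 higher and 3 negative values. Neutrophil and monocyte genes summed to 2660 to 4860 and 674 to 954, with 4 of 11 higher, 4 negative values and a median of 0.09. Such sums rest mostly on the brightest genes. Of all genes 12.8% were higher and 12.3% lower. The part of the cell cycle and cell type genes in the fall of the synthesis members was not tested. The member median of -0.90 became -1.03 within slide 2 (2 arrays per group) and -1.01 within slide 1 (1 array per group). The 16 member calls, where 25% of all genes were called, became 18 within slide 2, 17 with slide as a block and fewer within slide 1. The shares of all genes called in those fits are not given here.

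Without added Bcl2, the labelled deficient and control arrays gave no call among the 29 measured members in limma, where 0.031% of all genes passed. Of all genes, 581 of 9687 had an unadjusted p under 0.05. The member median was 0.25 over 19 positive and 10 negative values, against 0.01 over all genes, and it became -0.01 with arrays weighted by quality. Scd2 read 8.58, 8.44 and 9.61 on the labelled deficient arrays, against 8.72, 9.03 and 8.03 on the control arrays (0.28 ± 0.32). Sqle read 12.30, 12.41 and 12.52, against 12.13, 12.41 and 11.75 on the control arrays (0.31 ± 0.20). Both pairs of groups overlapped, and their adjusted p were 0.82 and 0.79.

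The dim control array was the lowest control array for most members with positive values. Fdps read 13.10, 13.07 and 13.07 on the labelled deficient arrays, against 12.96, 13.17 and 11.79 on the control arrays (0.44 ± 0.28, adjusted p = 0.79). Nsdhl read 9.02, 8.96 and 8.67, against 8.71, 8.91 and 7.59 on the control arrays (0.48 ± 0.30, adjusted p = 0.79). Insig1 read 8.78, 9.18 and 8.92, against 8.71, 8.82 and 7.89 on the control arrays (0.48 ± 0.23, adjusted p = 0.79). In each of the 3 genes control replicate 3 was the lowest array, and the other control arrays lay within or near the labelled deficient ones. Insig2 and Elovl6 were the 2 members whose groups did not overlap, at -0.26 ± 0.16 and 0.40 ± 0.21, against 7.87% of all genes. Within slide 2 each of these groups holds 1 array, control replicate 3 and labelled deficient replicate 3, so calls there are not read. Within slide 1, with 2 arrays per group, none was called among the members or over all genes.

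Abcg1 read 7.21, 7.03 and 7.46 on the labelled deficient arrays, against 7.95, 7.96 and 6.42 on the control arrays. The control arrays lie on both sides of the labelled deficient ones, and the difference was -0.21 ± 0.34 (adjusted p = 0.86). Mylip read 5.65, 5.48 and 6.21, against 5.35, 6.07 and 5.16 on the control arrays (0.26 ± 0.27, adjusted p = 0.81).

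The difference between these 2 contrasts was itself tested as an interaction over the 12 arrays. It passed for 13 of 29 members, 12 negative and 1 positive, where 10.8% of all genes passed, 6.17% negative and 4.64% positive, and the member median was -0.89 against 0.04. Scd2 had the largest value at -3.36 ± 0.46 (adjusted p = 0.00079), followed by Fads2 at -3.02 ± 0.45 (adjusted p = 0.0014) and Fdps at -2.52 ± 0.40 (adjusted p = 0.0021). The gap between the labelled deficient and control arrays was thus more negative with Bcl2 than without it for these genes. Mvk, Dhcr7 and Stard4, lower with Bcl2, did not pass here (adjusted p = 0.13, 0.074 and 0.16), and Pmvk gave -2.41 ± 0.80 (adjusted p = 0.081). Without control replicate 3 the interaction passed for Pmvk (-1.53, adjusted p = 0.0024), Stard4 (-1.18, 0.016), Dhcr7 (-1.05, 0.028) and Hsd17b7 (-1.02, 0.038). It also passed without control replicate 1 or 2 for Pmvk (0.032 and 0.046) and Dhcr7 (0.049 and 0.037). Of the 13, 12 stayed past the threshold whichever array was left out. The positive one, Insig2 (0.95 ± 0.23, adjusted p = 0.021), was lost without Bcl2 control replicate 1 (0.062), Bcl2-rescued labelled deficient replicate 2 (0.053) or 3 (0.067) or labelled deficient replicate 1 (0.053). Without control replicate 3 the interaction of Abcg1 also passed, at 1.01 (adjusted p = 0.0047), against 0.48 ± 0.48 with it.

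Another view sets the Bcl2-rescued labelled deficient arrays against the labelled deficient arrays, which carry the same OHT label. It shares the Bcl2-rescued arrays with the first comparison and is no independent repeat. Here 14 members were lower and 4 higher, where 39.5% of all genes passed, 18.2% lower and 21.3% higher, and the member median was -0.76 against 0.05. Against labelled deficient values given above, Sqle fell by 2.42 ± 0.20 (adjusted p = 3.5e-06) and Cyp51, at 10.25, 10.32 and 10.32 on the labelled deficient arrays, was lower with a log2 fold change of -2.2 ± 0.23 (adjusted p = 2e-05). Fads2, at 8.79, 8.44 and 9.08 on the labelled deficient arrays, fell by 2.81 ± 0.32 (7.02-fold, adjusted p = 4.1e-05). Insig1 fell by 1.94 ± 0.23 (adjusted p = 5.8e-05), and Scd1, at 11.94, 12.12 and 12.31 there, by 1.90 ± 0.21 (adjusted p = 3.3e-05).

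The 4 members higher in this comparison were Insig2, Scap, Elovl5 and Abcg1. Insig2, at 7.93, 8.31 and 8.38 on the labelled deficient arrays, rose by 1.21 ± 0.16 on its brightest probe (adjusted p = 0.00013), but its second kept probe gave -1.70 ± 0.18, so the probes disagree and its direction here is uncertain. That second probe also gave -2.36 ± 0.18 between the Bcl2 control and control arrays, where the first gave 0.26 ± 0.16. Abcg1 rose by 1.20 ± 0.34 (2.30-fold, adjusted p = 0.015), with the 3 Bcl2-rescued labelled deficient arrays above the 3 labelled deficient ones, and was lost without labelled deficient replicate 2 (1.09, adjusted p = 0.053). Scap rose by 0.63 ± 0.23 (adjusted p = 0.048, second probe 1.94 ± 0.26), a call lost in 9 of 12 fits that left out 1 array, with adjusted p up to 0.14. Elovl5 rose by 0.52 ± 0.16 (adjusted p = 0.022) and was lost without Bcl2-rescued labelled deficient replicate 1 (0.077) or 3 (0.084) or labelled deficient replicate 2 (0.089).

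Among the lower calls of that view, Mvk (-0.76 ± 0.23, adjusted p = 0.022) was lost without Bcl2-rescued labelled deficient replicate 2 (0.068) or 3 (0.08) or labelled deficient replicate 2 (0.086). Dhcr7 (-1.03 ± 0.34, adjusted p = 0.032) was lost without any 1 of the 6 arrays compared, with adjusted p up to 0.12. Neutrophil and monocyte genes summed to 2660 to 4860 on the Bcl2-rescued labelled deficient arrays and 10600 to 18000 on the labelled deficient arrays. Of these 11 genes 7 were lower and 2 higher, the highest at 3.13, where 18.2% of all genes were lower and 21.3% higher. S phase genes summed to 10400 to 11100 and 56200 to 65400, with all 15 lower. The part of both lists was not tested. The second probe of Fdps gave -0.16 ± 0.35 here, against -1.92 ± 0.28 from the brighter one, so the size of that fall is uncertain. Without control replicate 3 this view also called Pmvk (-1.21, adjusted p = 0.00015), Stard4 (-0.68, 0.011) and Srebf2 (-0.49, 0.023) lower.

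Between Bcl2 control and control arrays 2 of 29 members passed, a share of 6.9% that is near the 8.13% of all genes. The member median was 0.21 against 0.03, 25 of 29 values were positive, and 7 members were higher with no overlap, where 13% of all genes were. The dim control replicate 3 was the lowest control array for most of the 29 members, Pmvk and Fdps among them. It was the highest for fewer, such as Hsd17b7 and Stard4. Under alternative fits Pmvk (1.22) lay between 0.19 and 3.07, and Nsdhl (0.30) between -0.31 and 1.19. The part of that array in the positive values was not tested. Srebf1 read 7.03, 6.98 and 7.10 on the Bcl2 control arrays, against 6.23, 6.21 and 5.42 on the control arrays, and rose by 1.08 ± 0.27 (2.12-fold, adjusted p = 0.03). Mvd read 9.72, 9.59 and 9.66, against 8.95, 9.32 and 8.45 on the control arrays, and rose by 0.75 ± 0.20 (adjusted p = 0.043). Both calls were thin. Srebf1 was lost without Bcl2 control replicate 1 (0.091), 2 (0.075) or 3 (0.1), and Mvd in 10 of 12 such fits, with adjusted p up to 0.13. Scd2 gave 1.02 ± 0.32 (adjusted p = 0.079) and passed without labelled deficient replicate 3 (0.037), and Scd1 gave -0.49 ± 0.21 (adjusted p = 0.18). Abcg1, at 8.21, 8.18 and 8.08 on the Bcl2 control arrays, lay above all control arrays and did not pass (0.71 ± 0.34, adjusted p = 0.23). Neutrophil and monocyte genes summed to 674 to 954 on the Bcl2 control arrays and 10400 to 18900 on the control arrays, with 7 of 11 lower. S phase genes summed to 45400 to 53200 and 62300 to 68200, with 2 of 15 lower and all 15 values negative, unlike most members. G2 and M phase genes summed to 50900 to 57100 and 89500 to 107000, with 6 of 12 lower, and dendritic cell genes to 10100 to 13100 and 15900 to 31400, with 2 of 10 lower. Their part was not tested.

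The DN3 arrays were set against control pro-B arrays with all 15 arrays normalised together, which adds Idi1 and gives 30 measured members. All DN3 arrays lay on a slide of their own, with another strain and genotype label, and with no background subtracted in the deposited values, so lineage, slide and processing cannot be told apart. Of the 30 members 7 were higher and 7 lower, a share of 46.7% where 45.2% of all genes passed, 20.9% higher and 24.3% lower, and the member median was -0.05 against -0.07. The count of members was thus near the background.

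**Figure D4:**
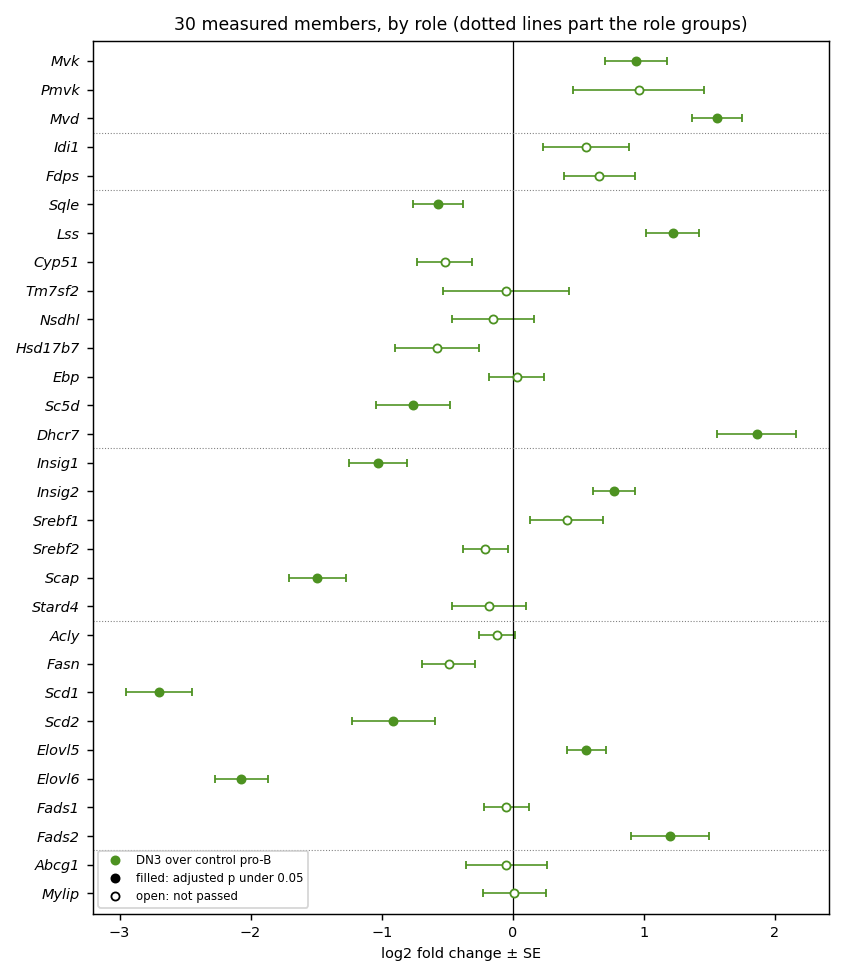
Log2 fold change ± SE (limma, n = 3 arrays per group, all 15 arrays normalised together) of the 30 measured members for DN3 over control pro-B arrays, in the same role order. The filled points fall on both sides, with Dhcr7 at 1.86 and Mvd at 1.56 the highest and Scd1 at -2.70 and Elovl6 at -2.07 the lowest.

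Sterol enzymes stood on both sides in DN3 arrays. Mvd read 10.33, 10.13 and 10.16 on the DN3 arrays, against 8.69, 9.06 and 8.20 on the control arrays, and rose by 1.56 ± 0.19 (2.94-fold, adjusted p = 1.3e-05). Dhcr7 read 8.54, 8.72 and 8.81, against 7.18, 7.38 and 5.94 on the control arrays, and rose by 1.86 ± 0.30 (3.62-fold, adjusted p = 0.00022). Lss read 9.77, 9.69 and 9.54, against 8.14, 8.69 and 8.51 on the control arrays, and rose by 1.22 ± 0.20 (adjusted p = 0.00021). These DN3 arrays lay above every control array, and Mvk rose too (0.94 ± 0.24, adjusted p = 0.0067). Sqle gave -0.57 ± 0.19 (adjusted p = 0.023), a call lost without control replicate 1 (0.053) or 2 (0.1) or DN3 replicate 3 (0.091). Sc5d was not well above background on any DN3 array and was at least 1.11-fold lower (adjusted p = 0.041), a call lost in 8 of 15 fits that left out 1 array, with adjusted p up to 0.16.

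The fatty acid desaturases parted from each other in DN3 arrays. Scd1 read 9.94, 9.09 and 8.94 on the DN3 arrays, against 11.88, 12.07 and 12.11 on the control arrays, and fell by 2.70 ± 0.25 (6.48-fold, adjusted p = 1.3e-06). Elovl6 read 10.23, 9.90 and 10.00, against 12.23, 12.31 and 11.80 on the control arrays, and fell by 2.07 ± 0.20 (4.21-fold, adjusted p = 1.6e-06). Fads2 read 9.67, 9.16 and 9.11, against 8.50, 8.55 and 7.29 on the control arrays, and rose by 1.20 ± 0.30 (adjusted p = 0.0052). Scd1 and Elovl6 were far below every control array, while Fads2 was above them, though its second probe gave -0.08 ± 0.52. Fads1 gave -0.05 ± 0.17 (adjusted p = 0.83). Scd2 fell by 0.91 ± 0.32 (adjusted p = 0.031), and was lost without control replicate 1 (0.079) or 2 (0.12) or DN3 replicate 3 (0.13).

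Of the SREBP controls, Insig1 read 6.97, 7.18 and 7.43 on the DN3 arrays, against 8.46, 8.57 and 7.64 on the control arrays, and fell by 1.03 ± 0.22 (adjusted p = 0.0018). Insig2 rose by 0.77 ± 0.16 on its brightest probe (adjusted p = 0.0014) and gave -2.04 ± 0.42 on the second, so its direction is uncertain. Scap fell by 1.49 ± 0.22 on its brightest probe (adjusted p = 7.6e-05) and gave 0.54 ± 0.24 on the second, so it is uncertain as well. Abcg1 read 7.15, 6.89 and 7.43 on the DN3 arrays, against 7.71, 7.71 and 6.21 on the control arrays, and gave -0.05 ± 0.31, or -0.56 without control replicate 3 (adjusted p = 0.011). Without that array Cyp51 (-0.81, adjusted p = 3e-04) and Fasn (-0.72, 0.0019) were also called lower, and Idi1 (1.01, 0.0072) and Tm7sf2 (0.75, 0.023) higher. Fasn was detected on 0 of 3 DN3 and 0 of 3 control arrays, and Tm7sf2 on 1 of 3 in each group. Idi1 was detected on 3 DN3 and 0 control arrays, so it was kept through the group where it was high. The calls of Fasn, Tm7sf2 and Idi1 thus rest on values at or near background and are not read as differences.

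The split of DN3 calls turned on the scaling. With each array scaled to its 75th percentile the median over all genes was -0.26, against -0.07 here, and calls over all genes were 1289 higher and 3534 lower, against 2146 and 2500. The members then gave 4 higher and 12 lower. Mvd, Dhcr7, Lss and Mvk stayed higher, and Scd1, Elovl6, Insig1, Scap, Scd2 and Sqle stayed lower, while Elovl5 turned to -0.24, against 0.56 ± 0.15 here (adjusted p = 0.0066), and Fads2, Insig2 and Sc5d no longer passed.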

How the data were processed

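Per the labels, biotinylated cRNA of 15 samples was hybridised to Illumina bead arrays, and the labels and files name no scanner step, software version or genome build. The intensities are the deposited scanner values per probe, not normalised between arrays; background had been subtracted on pro-B arrays (33.2% to 39.9% of their values were negative) but not on DN3 arrays (lowest value 39.6). The detection column is a fraction deposited by the authors, and 1 minus it was taken as the detection p. The deposited score table equals, within 5e-06, each probe's intensity centred and scaled over the arrays, so it served only as an alternative.

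Values were corrected with normexp, quantile normalised and logged (neqc, offset 16, limma 3.58.1 in R 4.3.3), for the 12 pro-B arrays alone and, for DN3, for all 15. Probes with detection p under 0.05 on at least 3 arrays were kept, and each gene was read from its brightest kept probe, leaving 9687 and 10290 genes. Of 45263 probes, 34874 had 1 symbol, 18 several and 10371 none in the gene table. Every test is limma's moderated test with Benjamini-Hochberg adjustment over all genes, so each adjusted p in the text comes from a limma fit across all genes. The fit was checked on simulated data. The number of arrays limits the precision. Members and lists were chosen with earlier results of these data known, and all measured members are reported. Same-numbered arrays deviated together within each Bcl2 background (correlations 0.31 to 0.35 and 0.23 to 0.39), so replicate number was used as a block in an alternative fit. Such arrays also shared a slide, so pairing and slide cannot be told apart there. Between the Bcl2 control and control arrays the correlations were 0.30, 0 and 0.32 for replicates 1, 2 and 3. Upstream sequences came from RefSeq tables of GRCm38.p6.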

Additional observations from a re-analysis of the deposited data

Results flagged for a closer look

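For 13 members the gap between labelled deficient and control arrays differed with and without Bcl2, by limma's interaction term over 12 arrays. The log2 differences of the gaps were -3.36 for Scd2, -3.02 for Fads2, -2.52 for Fdps, -2.51 for Nsdhl and -2.46 for Cyp51. They were -2.27 for Sqle, -2.07 for Insig1, -1.96 for Mvd, -1.6 for Fads1, -1.41 for Scd1, -1.37 for Lss and -1.35 for Elovl6. Insig2 alone was positive, at 0.95. Adjusted p lay between 0.00036 (Sqle) and 0.021 (Insig2).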

How the results depend on the processing

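Of 4496 member values under alternatives other than the deposited scores, 4228 stayed on their side of the threshold, 117 lost the call, 143 gained one and 8 turned sign with a call in 1 of the fits. In 163 more the sign changed with no call in either fit. The count of 16 members between the Bcl2 groups was 7 within slide 1 and 1 with the deposited scores. The 18 against labelled deficient arrays became 10 with the scores, the interaction's 13 became 4 within slide 1 and 0 with the scores, and the 0 without Bcl2 became 13 within slide 2. The 2 between wild type groups became 0 with 75th percentile scaling, with only the arrays compared, within slide 1 and with the scores, 1 with detection on all arrays or no filter, 5 with the mean of probes and 15 within slide 2, and 0 to 2 with 1 array left out. The DN3 count of 14 became 8 with only the arrays compared. Synthesis minus efflux (-1.06) was -0.98 with the mean of probes, -0.87 with no background correction, -0.97 with no filter or an offset of 50, and -1.26 to -1.01 with 1 array left out, chosen after seeing the data. The cause of these shifts was not tested. Within slide 1 each Bcl2 group holds 1 array. Within slide 2 the labelled deficient and control groups hold 1 array each, and that control array is the dim replicate 3. Counts from fits with such a group, here and over all genes below, are listed for completeness and not read. The member counts here carry no share of all genes, and calls over all genes moved as well in many of these fits, as given below.

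With replicate number as a block within each Bcl2 background, the members called between the Bcl2 groups were 19, adding Pmvk, Hsd17b7 and Srebf2. The interaction kept a count of 13 and the comparison without Bcl2 0. With 1 block across all numbers these counts were 16, 13 and 0, and the counts against labelled deficient arrays and over all genes between wild type groups were 18 and 822.

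Signs turned, with a call in 1 of the fits, for Abcg1 without Bcl2 within slide 2 (1.02), Hsd17b7 between wild type groups within slide 2 (-0.73), and Insig2 with the mean of its probes (-1.05 between wild type groups, -0.25 against labelled deficient arrays, -0.63 in DN3). In DN3 they turned for Elovl5 with 75th percentile scaling (-0.24), and for Tm7sf2 with array weights (0.71) and without control replicate 3 (0.75, range -0.45 to 0.75 with 1 array left out). With the scores DN3 values were -1.33 for Elovl5, -0.66 for Fads2, 1.89 for Fasn, 0.39 for Insig1, -1.2 for Insig2, -0.52 for Lss, -0.47 for Mvd, 0.23 for Sc5d and 1.83 for Tm7sf2.

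Calls over all genes moved by over 1.5 times as follows. Between the Bcl2 groups, 2426 became 4475 with array weights, 4054 with only the arrays compared, 596 with the scores, 484 within slide 1 and 1654 to 4069 with 1 array left out. Without Bcl2, 3 became 8 with weights, 2996 within slide 2, and 0 with only the arrays compared, the scores or slide 1, and 3 to 5 with 1 array left out. Between wild type groups, 788 became 2062 with weights, 169 with only the arrays compared, 0 with the scores, 8 and 3940 within slides 1 and 2, and 382 to 1972 with 1 array left out. Against labelled deficient arrays, 3826 became 1738 with the scores. For the interaction, 1047 became 2373 with weights, 0 with the scores, 108 and 3274 within slides 1 and 2, and 621 to 2006 with 1 array left out. For DN3, 4646 became 2850 with detection on all arrays, 2667 with DN3 and control arrays normalised alone and 2686 with only the arrays compared.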
